A study of Mus musculus with 20 samples.

Results

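Trim15, Trim31, and Trim40 are tripartite motif genes that lie close together in the major histocompatibility complex region of mouse chromosome 17. They were picked by name and found in the gene count table by their Ensembl identifiers, so they are 3 of the 12701 genes measured. The tissue was proximal colon (PC), and the 20 mice were of the inbred strain C57BL/6. From 3 weeks of age all mice ate the Total Western Diet (TWD), a rodent feed composed to match typical American intake, for 6 weeks. They then stayed on the TWD alone (0% RPS) or had 2, 5, or 10% of raw potato starch mixed into it for 3 more weeks. Raw potato starch is a resistant starch (RPS) that gut bacteria ferment. Each diet had 5 libraries, 1 per mouse, so all groups share the TWD and differ in the starch added to it.

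Tripartite motif (TRIM) proteins carry a RING domain, B-box zinc fingers, and a coiled coil, and most act as E3 ubiquitin ligases, enzymes that tag other proteins with ubiquitin. Trim31 is known for ubiquitination of the antiviral adaptor MAVS and for the degradation of the inflammasome sensor NLRP3. Trim40 is known to restrain the RNA sensors RIG-I and MDA5 and to limit NF-kB by way of NEDD8 conjugation, and Trim15 is known as a component of focal adhesions, the sites where cells attach to the matrix.

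On the GRCm39 assembly, Trim15 (ENSMUSG00000050747) occupies chr17:37171583-37178145 on the minus strand. Trim40 (ENSMUSG00000073399) follows at chr17:37192490-37201015, also on the minus strand, and Trim31 (ENSMUSG00000058063) lies at chr17:37209010-37221106 on the plus strand. The 3 genes span 49.5 kb, and Trim10, which lies between Trim15 and Trim40, is not in the count table. No window of 50 bases, the read length, in the GENCODE transcripts of Trim15 (2047 windows), Trim31 (2208 windows), or Trim40 (2486 windows) occurs in a transcript of another gene. Trim31 overlaps 1 annotated gene, the lncRNA Gm64731 on the opposite strand, with which it shares 0 exonic bases.

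The bases before the start sites of the members are shown as a description, and a link to their levels was not tested. The sequences are from RefSeq (table of build GRCm38.p6) and were placed on GRCm39 by an exact match. Each is written 5′ to 3′ on the strand of its gene, without the bases that GENCODE counts as part of the gene, and with motif matches in capitals. The Trim15 sequence covers chr17:37178146-37178352 (minus strand, 207 bases), that of Trim31 chr17:37208772-37209009 (plus strand, 238 bases), and that of Trim40 chr17:37201018-37201267 (minus strand, 250 bases).
Trim15: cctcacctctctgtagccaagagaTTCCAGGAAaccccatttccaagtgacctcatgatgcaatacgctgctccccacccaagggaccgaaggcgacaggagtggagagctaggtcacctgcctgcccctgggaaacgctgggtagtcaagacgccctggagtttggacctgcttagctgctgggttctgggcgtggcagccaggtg
Trim31: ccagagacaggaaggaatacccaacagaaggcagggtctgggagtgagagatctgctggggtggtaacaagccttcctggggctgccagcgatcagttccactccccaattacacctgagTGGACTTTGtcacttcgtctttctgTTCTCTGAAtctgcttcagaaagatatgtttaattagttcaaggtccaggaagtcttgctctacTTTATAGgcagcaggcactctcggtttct
Trim40: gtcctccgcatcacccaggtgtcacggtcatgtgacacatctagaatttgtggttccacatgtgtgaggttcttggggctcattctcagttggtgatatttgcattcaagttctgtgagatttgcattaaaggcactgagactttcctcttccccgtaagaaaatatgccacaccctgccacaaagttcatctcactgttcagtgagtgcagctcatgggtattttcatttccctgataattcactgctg

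A set of 6 motifs was looked for on both strands of the 250 bases before each RefSeq start. The GAS motif bound by STAT factors (TTCNNNGAA) matched in Trim15 at positions -226 to -218 and in Trim31 at -105 to -97, counted from the RefSeq start. It matched in 7.04% of 32536 promoters of the same length. The HNF4 motif (CAAAGTCCA) matched only in Trim31 among the members, on the minus strand at -130 to -122, and in 0.39% of all promoters. The CDX motif (TTTATNG) also matched in Trim31, at -41 to -35, and in 9.74% of all promoters. Neither the interferon response core (ISRE, 2.98% of all promoters), the NF-kB motif (0.36%), nor the E-box (CACGTG, 6.04%) matched in any of the 3 windows, and none of the 6 motifs matched before Trim40. None of the matches overlapped another.

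The libraries held 20581013 to 35083751 counts, with a median of 26354926. The members were well covered, with 350 to 2076 counts per library for Trim15, 673 to 2777 for Trim40, and 1376 to 3329 for Trim31. Replicate 2 of 0% RPS stood apart, at an average distance of 63.8 from the rest of its diet on the log2 scale over genes averaging 10 or more counts, where the next highest library was at 48.3. It also had the highest summed leukocyte marker level of the 20 libraries, 711.2 on the scale per kilobase described below, against 127 to 318 in the others. Its summed smooth muscle marker level was the highest as well (10297), and its summed surface colonocyte marker level was the lowest (35193). Results that rest on it are therefore given without it. Colon epithelium markers were present as a sum in every library (13 of 14 listed genes in the table, none at 0 counts in all libraries of a diet).

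Levels were compared between genes as counts per kilobase of exon, scaled to 1e6 per library (level per length). On this scale Trim31 was the highest of the 44 TRIM family genes in the table, with a mean level of 114 over 20 libraries. Trim28, a chromatin corepressor, followed at 113, Trim25, the ligase that activates RIG-I, at 86.7, and Trim16 at 73.9. Trim40 was the fifth at 72.5, and Trim15 the seventh at 45.3. These ranks are of means over all 4 diets. At 0% RPS alone, Trim28 (117.5) was above Trim31 (96.8), Trim41 (69.4) above Trim40 (53.7), and Trim26 (43.7) above Trim15 (28.1). Among 12682 annotated genes, Trim31 stood at the 92.4 percentile, Trim40 at 87.4, and Trim15 at 79.5.

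Trim15 was the member with the largest difference between diets. Its normalised read counts (counts divided by the DESeq2 size factor of the library) at 0% RPS were 573.7, 375.9, 645.4, 324.1, and 362.9. At 2% RPS they were 747.3, 634.2, 700.0, 421.5, and 859.2. At 5% RPS they were 863.3, 2012, 1990, 480.0, and 642.3, and at 10% RPS 764.8, 1041, 645.2, 664.7, and 579.9. A pair of libraries at 5% RPS, replicates 2 and 3, stood far above all the others, while the other 3 lay between 480.0 and 863.3. In each starch group 3 of 5 libraries were above the highest 0% RPS library, and the groups overlapped. The means were 456 ± 143 at 0% RPS, 672 ± 163 at 2%, 1198 ± 746 at 5%, and 739 ± 181 at 10% (SD, n = 5).

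Compared with 0% RPS, Trim15 was increased at 5% RPS by 1.39 ± 0.35 on the log2 scale (SE, adjusted p = 0.0138, DESeq2). With edgeR, which called 0.0566% of genes higher, the adjusted p was 0.0901, so the call rests on the choice of test. To be called, a gene had to have an adjusted p no greater than 0.05 and at least a 1.5-fold difference, and 0.334% of the 12561 genes tested were called higher at 5% RPS. The log2 fold change was 0.56 ± 0.36 at 2% RPS (adjusted p = 0.650) and 0.70 ± 0.35 at 10% RPS (adjusted p = 0.261), and neither passed, in comparisons where 0.0239% and 0.536% of all genes were called higher. Without replicate 2 of 5% RPS the difference at 5% was 1.12 (adjusted p = 0.0677) and without replicate 3 it was 1.13 (adjusted p = 0.117). The call was also lost without replicate 4 of 0% RPS (1.29, adjusted p = 0.0772) and without replicate 5 of 0% RPS (1.32, adjusted p = 0.0726).

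Trim40 had the next largest difference. Its normalised read counts at 0% RPS were 1383, 700.8, 1463, 927.8, and 747.5. At 2% RPS they were 1393, 1226, 1785, 1040, and 1731. At 5% RPS they were 1588, 2692, 2516, 1088, and 1246, and at 10% RPS 1589, 1615, 1707, 1378, and 1514. The same pair of libraries at 5% RPS held the 2 highest values of the 20, and 4 of 5 libraries at 10% RPS were above every 0% RPS library, although each starch group overlapped with 0% RPS. The means were 1044 ± 357 at 0% RPS, 1435 ± 321 at 2%, 1826 ± 736 at 5%, and 1561 ± 123 at 10% (SD, n = 5).

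Trim40 passed both thresholds at 5% RPS, with a log2 fold change of 0.81 ± 0.24 (adjusted p = 0.0463, DESeq2), close to the limit. With edgeR the adjusted p was 0.153. The change was 0.46 ± 0.24 at 2% RPS (adjusted p = 0.575) and 0.58 ± 0.24 at 10% RPS (adjusted p = 0.146). The call at 5% RPS held in 9 of the 20 fits that left out 1 library. Without replicate 2 of 0% RPS, the library that stood apart, the difference was 0.69 (adjusted p = 0.0718), and without replicates 2 or 3 of 5% RPS it was 0.62 (adjusted p = 0.227) or 0.66 (adjusted p = 0.203). It was also lost without replicates 4 or 5 of 0% RPS, 1 or 2 of 2% RPS, 1 of 5% RPS, or 2, 3, or 5 of 10% RPS, each left out alone (0.71 to 0.85, adjusted p = 0.0501 to 0.185).

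Trim31 had the smallest difference and the smallest spread. Its normalised read counts at 0% RPS were 1827, 1433, 2097, 1818, and 1682. At 2% RPS they were 2151, 2145, 2151, 1824, and 2407. At 5% RPS they were 2276, 3227, 2990, 1976, and 2119, and at 10% RPS 2186, 2222, 2276, 2392, and 2191. All 5 libraries at 10% RPS were above all 5 at 0% RPS, as were those of 1.37% of all genes tested, and the 10% RPS values lay within a narrow range. At 2 and 5% RPS, 4 of 5 libraries were above every 0% RPS library. The means were 1771 ± 242 at 0% RPS, 2136 ± 207 at 2%, 2518 ± 556 at 5%, and 2253 ± 85.6 at 10% (SD, n = 5).

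The difference in Trim31 at 5% RPS was 0.51 ± 0.12 on the log2 scale (adjusted p = 0.00934, DESeq2). This is a 1.42-fold change, so Trim31 had the smallest adjusted p of the members but was not called, since it fell short of the 1.5-fold threshold. By adjusted p alone, 1.33% of all genes tested were higher at 5% RPS. The adjusted p was 0.0812 with edgeR, and it was 0.0719 without replicate 2 of 5% RPS, 0.0770 without replicate 3, and 0.0518 without replicate 5 of 0% RPS. The change was 0.27 ± 0.12 at 2% RPS (adjusted p = 0.512) and 0.35 ± 0.12 at 10% RPS (adjusted p = 0.0820). Without replicate 2 of 0% RPS the differences in Trim31 were 0.44 at 5% RPS (adjusted p = 0.0204) and 0.28 at 10% RPS (adjusted p = 0.146).

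**Figure D1:**
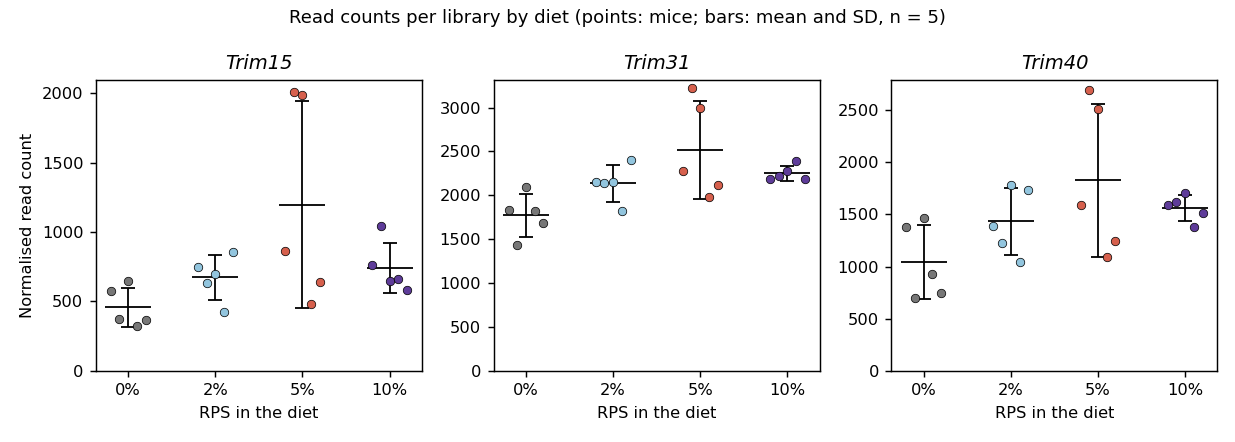
Normalised read counts (vertical axes, starting at 0) of Trim15, Trim31, and Trim40 in each of the 20 libraries, by percentage of RPS in the diet (horizontal axes), with the mean and SD of 5 mice. In each panel 2 libraries at 5% RPS lie above all others, and the 10% RPS values of Trim31 and Trim40 are tightly grouped.

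All 3 members had the same order of mean levels, 0% RPS lowest, then 2%, 10%, and 5% RPS. Neighbouring levels in this order could not be told apart. Trim15 differed by 0.14 between 10% and 2% RPS on the log2 scale (95% interval -0.56 to 0.83, adjusted p = 0.952), and by -0.70 between 10% and 5% RPS (-1.39 to -0.0021, unadjusted p = 0.0493, adjusted p = 1). For Trim31 the difference between 10% and 5% RPS was -0.16 (-0.40 to 0.08), and for Trim40 it was -0.23 (-0.70 to 0.24). The difference between 5% and 2% RPS was 0.83 ± 0.35 for Trim15, 0.24 ± 0.12 for Trim31, and 0.35 ± 0.24 for Trim40 (SE, adjusted p = 1 for each). No member passed in any of these 3 comparisons, in which 0.0% (5% against 2%), 0.0557% (10% against 2%), and 0.00796% (10% against 5%) of genes were called in either direction. These comparisons do not show that the starch levels acted alike, since the interval for Trim15 at 5% against 2% RPS runs from 0.14 to 1.53.

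When the percentage of RPS was fitted as a number, no member passed. The slope per 1% RPS was 0.07 ± 0.04 for Trim15 (adjusted p = 0.347, DESeq2), 0.03 ± 0.01 for Trim31 (adjusted p = 0.178), and 0.05 ± 0.02 for Trim40 (adjusted p = 0.229), while 2.4% of all genes tested rose by this test. The 3 comparisons with 0% RPS share the same 5 control libraries, so their values are not independent of each other.

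**Figure D2:**
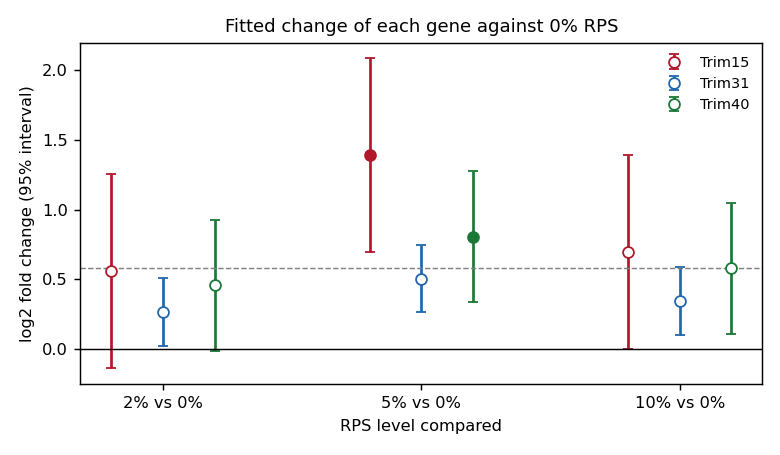
Fitted log2 fold change of Trim15, Trim31, and Trim40 at 2, 5, and 10% RPS against 0% RPS, with 95% intervals (DESeq2, 5 mice per diet). Filled points passed the adjusted p of 0.05 and the 1.5-fold threshold (dashed line), which only Trim15 and Trim40 at 5% RPS did.

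The spread between mice is given as the coefficient of variation (SD over mean). That of Trim15 was 31.4% at 0% RPS, 24.2% at 2%, 62.3% at 5%, and 24.5% at 10%. That of Trim31 was 13.7%, 9.69%, 22.1%, and 3.80%, and that of Trim40 was 34.2%, 22.4%, 40.3%, and 7.88%, in the same order of diets. For each member it was highest at 5% RPS, the diet with the highest means. These are descriptions of 5 libraries each and were not tested.

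Within a diet, mice with more of 1 member tended to have more of the others. After subtraction of the mean of each diet on the log2(normalised count + 1) scale, Pearson's r over 20 libraries was 0.86 between Trim15 and Trim31 (Spearman's rho 0.78), 0.88 between Trim15 and Trim40 (rho 0.86), and 0.89 between Trim40 and Trim31 (rho 0.85). Permutation of the libraries within diets (100000 resamples, two-sided) gave adjusted p values over the 3 pairs of 0.00052, 0.00027, and 0.00024 for r, and of 0.0023, 0.00069, and 0.00069 for rho. Without the 2 libraries farthest from the median of the first gene of each pair, which were replicates 2 and 3 of 5% RPS for Trim15, r was 0.66 for Trim15 with Trim31 (adjusted p = 0.0094) and 0.79 for Trim15 with Trim40 (adjusted p = 0.002, both by permutation). For Trim40 with Trim31, where replicates 2 and 4 of 5% RPS were left out, r was 0.84 (permutation, adjusted p = 0.0015). At 10% RPS, where Trim31 and Trim40 varied little, the library with the most Trim15 (replicate 2) was not that with the most Trim31 (replicate 4) or Trim40 (replicate 3). That library lay 0.52 above the mean of its diet for Trim15, but at -0.019 for Trim31 and 0.053 for Trim40.

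**Figure D3:**
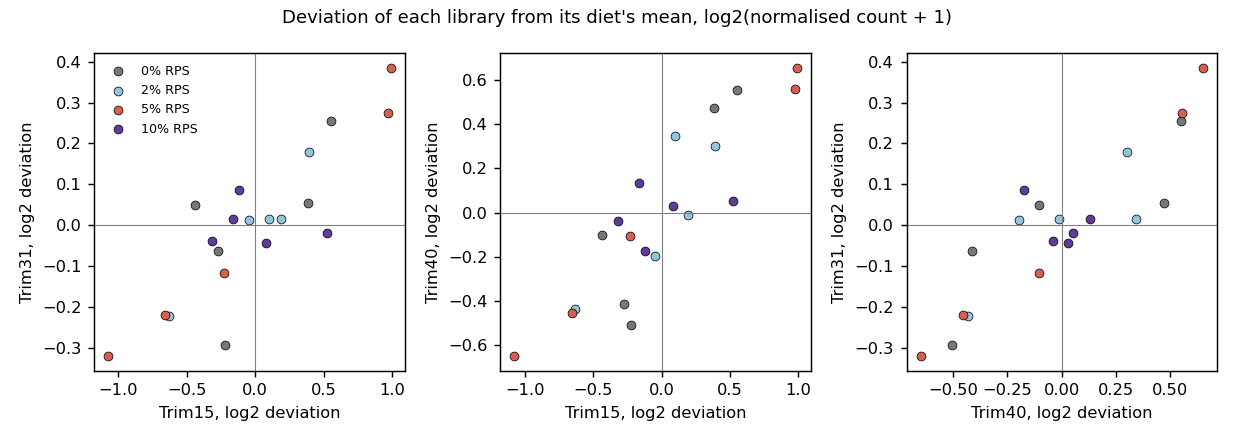
Deviation of each of the 20 libraries from the mean of its diet, log2(normalised count + 1), for each pair of members, with colours for the diets. Most points lie along a rising diagonal, with replicates 2 and 3 of 5% RPS at the top right of each panel.

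The balance between the members was compared as the log2 ratio of 1 to another within a library, by exact two-sided permutation of 10 libraries, where the smallest possible p is 0.00794. The ratio of Trim15 to Trim31 was higher at 5% than at 0% RPS by 0.71 (exact p = 0.0794, adjusted over 9 tests 0.262). The ratio of Trim15 to Trim40 was higher by 0.43 (exact p = 0.0556, adjusted 0.262), and that of Trim40 to Trim31 by 0.29 (exact p = 0.175, adjusted 0.262). All 9 differences were above 0, but their signs are not independent. The starch levels share the 0% RPS libraries, and the ratio of any pair follows from the other ratios. None of the 9 ratios passed. A greater increase of Trim15 than of the other members at 5% RPS was therefore not shown beyond the spread between mice.

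The gene whose pattern was most like that of Trim15 within diets, of 11979 genes averaging 50 or more normalised counts, was Pgs1, which encodes the enzyme that makes the cardiolipin precursor phosphatidylglycerol phosphate (r = 0.95 over 20 libraries). Trim40 was the second (r = 0.88), followed by Acot11 (0.87), an acyl-CoA thioesterase, Prr13 (0.86), and Stat3 (0.86), the transcription factor activated by interleukin 6 family and interleukin 22 signals, and Trim31 was the sixth (0.86). For Trim31 the closest genes were Trim40 (0.89), Mlkl (0.88), the effector of necroptosis, Gda (0.87), guanine deaminase, Fgfbp1 (0.87), a carrier of fibroblast growth factors, and Trim15 (0.86). For Trim40 they were B4galt1 (0.90), a galactosyltransferase, Trim31 (0.89), Trim15 (0.88), Uhmk1 (0.86), a kinase, and Ildr1 (0.85), a protein of tricellular junctions. For each member, both other members stood among the 6 closest genes. These correlations are descriptions over libraries that share their depth and tissue composition.

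Among these like genes, Gda was increased at 5% RPS by 1.24 (adjusted p = 0.000434) and at 10% RPS by 1.21 (adjusted p = 0.00035). B4galt1 had a log2 fold change of 0.39 at 5% RPS (adjusted p = 0.0106) and 0.42 at 10% RPS (adjusted p = 0.0022), and Prr13 of 0.54 at 5% RPS (adjusted p = 0.0119), all short of 1.5-fold. Pgs1 had 0.46 at 5% RPS (adjusted p = 0.0445), and Stat3 had 0.36 at 5% RPS (adjusted p = 0.0586) and 0.39 at 10% RPS (adjusted p = 0.0190). The other like genes outside the members did not pass at 5% RPS. These were Acot11 (adjusted p = 0.111), Mlkl (0.129), Fgfbp1 (0.255), Uhmk1 (0.106), and Ildr1 (0.348). At 10% RPS, Uhmk1 had 0.15 (adjusted p = 0.0333). By adjusted p alone, 1.33% of all genes tested were higher at 5% RPS and 2.76% at 10% RPS. All adjusted p values here are from DESeq2 over all genes.

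The rest of the TRIM family was compared in the same way. Of the 41 other TRIM family genes in the table, 0 were called in either direction at 2, 5, or 10% RPS by DESeq2 or edgeR (with an unadjusted p under 0.05 in 4, 8, and 4 genes by DESeq2 and in 3, 8, and 4 by edgeR). The 4, 8, and 4 of 41 by DESeq2 stand beside 8.71%, 16.6%, and 19.1% of all genes tested. The median log2 fold change of the 41 genes at 5% RPS was -0.01, as was that of all genes tested. Including the members, 2 of 44 were called at 5% RPS by DESeq2 (Trim15 and Trim40) and 0 by edgeR. Of all genes, 0.334% were called higher there by DESeq2 and 0.0566% by edgeR. By each tool, 11 of the 44 had an unadjusted p under 0.05, beside 16.6% of all genes with DESeq2. At 10% RPS, 2 others passed by adjusted p alone, as did 2.76% of all genes upwards and 1.93% downwards. Trim25 was higher by 0.26 (adjusted p = 0.0395) and Trim44 had -0.18 (adjusted p = 0.0482). Trim25 was also the only TRIM gene that passed in the trend over the percentage of RPS, with a slope of 0.026 per 1% RPS (adjusted p = 0.0335, DESeq2), and it did not pass with edgeR (adjusted p = 0.0851).

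**Figure D4:**
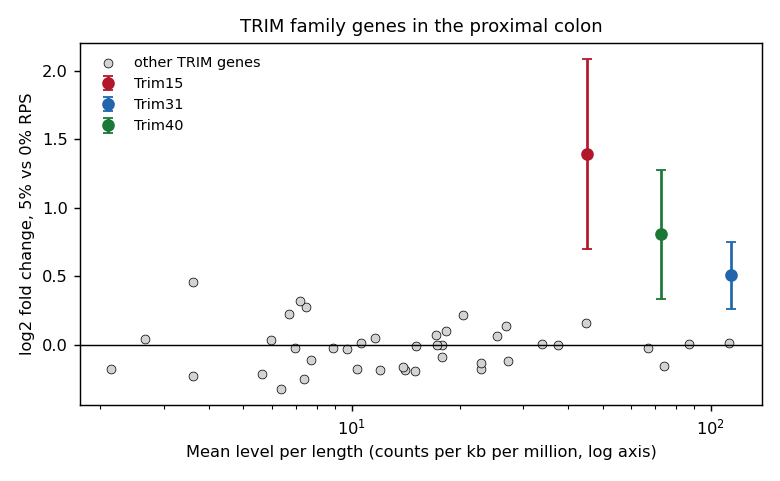
Log2 fold change at 5% against 0% RPS (vertical axis) and mean level per length over 20 libraries (horizontal log axis) of the 44 TRIM family genes in the table, with 95% intervals for Trim15, Trim31, and Trim40. The members lie above the 41 other family genes. Trim31 has the highest mean level over the 20 libraries, though not at 0% RPS alone.

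The neighbours of the members on the chromosome were compared next. Within 250 kb of a member, GENCODE lists 43 genes, of which 9 are in the table. These are the members and Trim26, Rnf39, Ppp1r11, Polr1h, Polr1has, and Gabbr1. None of the 6 neighbours was called at any starch level by DESeq2 or edgeR, with 0, 2, and 1 at an unadjusted p under 0.05 by each tool at 2, 5, and 10% RPS. Of all genes tested, 8.71%, 16.6%, and 19.1% had such a p with DESeq2. Trim26, a TRIM gene next to Trim15, had a log2 fold change of 0.16 ± 0.06 at 5% RPS (adjusted p = 0.149), Ppp1r11 of 0.20 ± 0.11 (adjusted p = 0.336), and Polr1h of 0.19 ± 0.11 (adjusted p = 0.360). Polr1has had 0.14 ± 0.12 (adjusted p = 0.559). Rnf39, on the far side of Trim31, had -0.04 ± 0.17 (adjusted p = 0.942), and Gabbr1, a subunit of the GABA-B receptor, had -0.18 ± 0.08 (adjusted p = 0.208). The annotated ends of Rnf39 and Ppp1r11 overlap on opposite strands, so counts from that overlap are uncertain if strand was not used. Within diets, Trim26 correlated with Trim31 at r = 0.71, with Trim40 at 0.57, and with Trim15 at 0.43, and the other neighbours at -0.56 to 0.31 with any member.

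**Figure D5:**
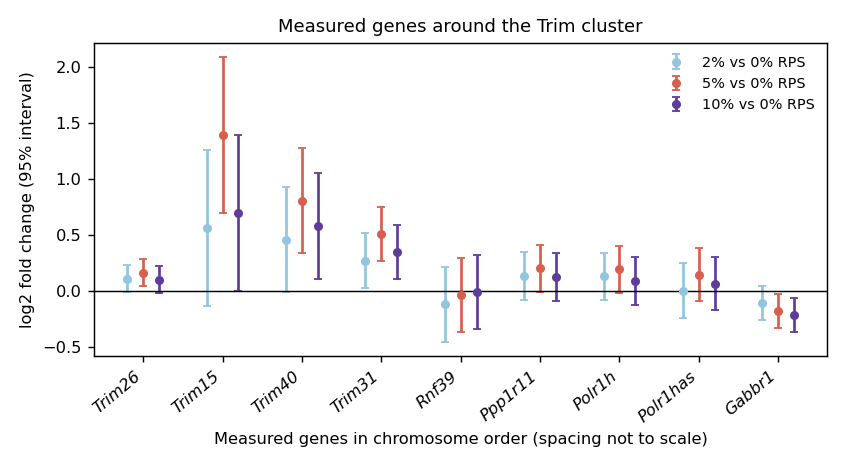
Log2 fold change with 95% interval at 2, 5, and 10% RPS against 0% RPS for the 9 measured genes of the region, in chromosome order. Trim15, Trim40, and Trim31 stand above the 6 neighbours at 5% RPS, none of which was called.

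The pathways in which the members are known to act were examined by list. Of 16 measured genes of RIG-I and MAVS signalling, the targets of Trim31 and Trim40 among them, 0 were called at 5% RPS by DESeq2 or edgeR (2 with an unadjusted p under 0.05 by each), and 1 was called at 10% RPS, where 0.536% of all genes were called higher. This was Irf7, an interferon-induced transcription factor, higher by 1.23 ± 0.20 (adjusted p = 1.21e-06). Mavs itself had a log2 fold change of 0.13 ± 0.08 at 5% RPS (adjusted p = 0.409), and Ifih1, which encodes MDA5, of 0.18 ± 0.08 (adjusted p = 0.229). Rigi had 0.01 ± 0.11 (adjusted p = 0.981). The median of the list was 0.03 at 5% and 0.07 at 10% RPS. At 10% RPS, 6 of the 16 had an unadjusted p under 0.05 by each tool. The shares of all genes with such a p were 16.6% at 5% and 19.1% at 10% RPS (DESeq2). By adjusted p alone, 3 of the list were higher at 10% RPS, Irf7 among them, as were 2.76% of all genes tested.

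Of 13 listed inflammasome genes, 11 were measured, and Nlrp3 itself and Il1b were not. Of the 11 measured, 0 were called at 5% RPS by either tool (4 with an unadjusted p under 0.05 by each, beside 16.6% of all genes with DESeq2) and 1 at 10% RPS, where 0.536% of all genes were called higher. This was Casp4, the sensor of cytosolic lipopolysaccharide, which was increased by 0.63 ± 0.15 (adjusted p = 0.00359). Of 17 genes of NF-kB and NEDD8 conjugation, 0 were called at any starch level by DESeq2 or edgeR, with 2, 3, and 2 at an unadjusted p under 0.05 by each tool at 2, 5, and 10% RPS. Ikbkg, which encodes the NF-kB regulator modified by NEDD8, had a log2 fold change of -0.01 ± 0.05 at 5% RPS, and Nedd8 of 0.19 ± 0.10 (adjusted p = 0.310). Of 22 focal adhesion genes, 0 were called at any level by either tool, with 0, 2, and 2 at an unadjusted p under 0.05 by DESeq2 and 0, 2, and 1 by edgeR. Both lists stand beside 8.71%, 16.6%, and 19.1% of all genes tested with such a p (DESeq2), in the same order of diets. Tln1 (talin) had -0.15 ± 0.09 (adjusted p = 0.408), Vcl (vinculin) -0.12 ± 0.12 (adjusted p = 0.652), and Pxn (paxillin) 0.05 ± 0.06 (adjusted p = 0.706).

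In a piece of whole tissue, fewer cells of a type and less RNA per cell cannot be told apart. Markers of surface colonocytes, the mature absorptive cells, were higher in part. Of 18 measured markers, 16 had a log2 fold change above 0 at 5% RPS (median 0.17, against -0.01 for all genes), and Plac8 was called by DESeq2 (0.61 ± 0.16, adjusted p = 0.0151), while edgeR called 0. The 2 below 0 were Aqp8, a water channel, at -2.52 ± 0.97 (adjusted p = 0.151) and Slc26a3, a chloride and bicarbonate exchanger, at -0.47 ± 0.27 (adjusted p = 0.372), and Aqp8 had the largest difference of the list without passing. At 10% RPS the median was 0.23 and Ceacam1 was called (0.60 ± 0.13, adjusted p = 0.000944). Of all genes, 0.334% were called higher at 5% RPS and 0.536% at 10% RPS (DESeq2). By adjusted p alone, 2 of the 18 were higher at 5% RPS and 5 at 10% RPS, beside 1.33% and 2.76% of all genes tested. At 5 and 10% RPS, 6 and 9 of the 18 had an unadjusted p under 0.05 by each tool. The shares of all genes with such a p were 16.6% and 19.1% (DESeq2). The summed level of the list ran from 35193 to 55049 at 0% RPS (level per length), 49375 to 58221 at 2%, 46211 to 57166 at 5%, and 49430 to 63891 at 10%. Without replicate 2 of 0% RPS, the library that stood apart, the lowest 0% RPS sum was 41583. Replicates 2 and 3 of 5% RPS, with the most Trim15, had the 2 highest sums of that diet. Replicate 3 of 0% RPS also had the most Trim15 and the highest sum of its diet. At 10% RPS, however, replicate 2 had the most Trim15 but the lowest sum. At 2% RPS, replicate 5 had the most Trim15, but its sum (53641) was below those of replicates 1 and 2 (57035 and 58221). None of these markers was at 0 counts in all libraries of a diet, and their part in the differences of the members was not tested. Goblet cell markers (8 of 8 above 0 at 5% RPS, median 0.41) had no gene called by either tool. At 5% RPS, 5 had an unadjusted p under 0.05 by DESeq2 and 4 by edgeR. Of all genes tested, 47.4% were above 0 at 5% RPS and 16.6% had such a p (DESeq2). All 8 were also above 0 at 10% RPS (median 0.44), where 0 were called by either tool. There 5 had an unadjusted p under 0.05 by each tool, beside 19.1% of all genes (DESeq2). By adjusted p alone, 1 of the 8 was higher at 10% RPS, as were 2.76% of all genes tested.

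General epithelial markers had sums of 21682 to 26490 at 0% RPS (level per length) and 24237 to 26521 at 5% RPS, and a median log2 fold change of 0.10 at 5% RPS. Of the 13 measured, 0 were called at 5 or 10% RPS by either tool. By adjusted p alone, 1 was higher at 5% RPS and 2 at 10% RPS, beside 1.33% and 2.76% of all genes tested. With the mean log2 level of the epithelial list as a covariate, the log2 fold change at 5% RPS was 1.38 for Trim15, 0.75 for Trim40, and 0.47 for Trim31, against 1.39, 0.81, and 0.51 without it. The adjusted p values became 0.229, 0.439, and 0.229, so the calls were lost with a small change in size. Smooth muscle markers had sums of 4535 to 10297 at 0% RPS and 3923 to 6257 at 5% RPS. Without replicate 2 of 0% RPS, the library that stood apart, the 0% RPS sums ran from 4535 to 6592. At 5% RPS, 0 of 10 markers were above 0 in log2 fold change (median -0.27), beside 47.4% of all genes. None was called by either tool, and none had an unadjusted p under 0.05. With a smooth muscle score as a covariate, Trim15 stayed past the threshold at 5% RPS (1.37, adjusted p = 0.0220), and Trim40 did not (0.77, adjusted p = 0.0825). Only 5 of 13 listed leukocyte markers were in the table, with none called at any starch level by either tool (0, 0, and 1 with an unadjusted p under 0.05 by DESeq2 at 2, 5, and 10% RPS, and 0 by edgeR), and of 8 markers of enteric neurons and glia 1, Gfap, was called at 10% RPS by DESeq2 (0.61 ± 0.16, adjusted p = 0.00797) and 0 by edgeR. It was the only 1 of the 8 with a log2 fold change above 0 at 10% RPS, where the median of the list was -0.18. At 10% RPS, 0.536% of all genes were called higher by DESeq2.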

How the data were processed

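Stranded mRNA libraries of the proximal colon, 1 for each of 20 mice, were read from a single end for 50 bases. The values deposited are whole-number counts per gene, which the authors made in CLC Genomics Workbench on GRCm39 and neither normalised nor pooled. The annotation and use of strand in counting are not given in the sources used here. Libraries were grouped by the treatment in their labels and replicates were numbered in accession order. Of 12701 gene identifiers, 12682 were matched to GENCODE M39.

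Counts of all 20 libraries were fitted with DESeq2 (version 1.42.0, R version 4.3.3) with diet as the only term, Wald tests, unshrunken fold changes, and Benjamini-Hochberg adjustment over all genes. edgeR (version 4.0.16, quasi-likelihood test) was the alternative, and other settings are in the closing section. Both were tested on simulated data. Ratios and correlations used a pseudocount of 1, and the mean of each marker list on the log2 scale served as a covariate. The members, the gene lists, the motifs, and the rule for named genes were chosen with earlier results of these data known. Named were the members, TRIM genes called or among the 5 with the highest level, neighbours within 250 kb, the 5 genes most like each member, and called genes of each list. Trim25 (at 10% RPS and in the trend), Trim41, Trim44, Aqp8, Slc26a3, and the pathway genes Mavs, Rigi, Ifih1, Ikbkg, Nedd8, Tln1, Vcl, and Pxn were named after their values were seen.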

Additional observations from a re-analysis of the deposited data

How the results depend on the processing

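The increase of Trim15 at 5% RPS kept its direction in all alternatives tried, but the call was lost with edgeR (1.39, adjusted p = 0.0901), with only the 2 diets compared (1.39, adjusted p = 0.0764), and with the epithelium score as covariate (1.38, adjusted p = 0.229). When each library was left out in turn, the difference ran from 1.12 to 1.59 and the call held in 16 of 20 fits. The call of Trim40 at 5% RPS was lost with edgeR (0.81, adjusted p = 0.153), with only the 2 diets compared (0.81, adjusted p = 0.228), with the smooth muscle score (0.77, adjusted p = 0.0825) or the epithelium score (0.75, adjusted p = 0.439) as covariate, without 3 libraries numbered apart from the rest in the labels (0.81, adjusted p = 0.0590), and at a fold threshold of 2 (0.81). Leaving out each library gave 0.62 to 0.96, with the call in 9 of 20 fits. At 10% RPS, Trim40 ran from 0.47 to 0.73 in such fits and was called in 1, without replicate 3 of 0% RPS (adjusted p = 0.0442). Trim31 at 5% RPS was called with no fold threshold (0.51), and ran from 0.40 to 0.58 when each library was left out, with adjusted p from 0.000763 to 0.0770. The loss at the higher fold threshold follows from the threshold itself. The cause of the other losses was not tested, and fits that leave libraries out differ both in which libraries they hold and in how many.

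The number of TRIM family genes called at 5% RPS was 2 with DESeq2 and 0 with edgeR. Signs turned only for differences close to 0. Trim15 at 10% against 2% RPS ran from -0.019 (without replicate 2 of 10% RPS) to 0.24. Without the 3 libraries numbered apart it was 0.38, against 0.14 with them, and the slope of Trim15 was 0.12 per 1% RPS (adjusted p = 0.210), against 0.07. In the same fit Trim40 at 10% against 2% RPS was 0.27, against 0.12. None of these passed. The log2 ratio of Trim15 to Trim40 ran from -0.0053 to 0.15 at 2% RPS and from -0.043 to 0.15 at 10% RPS when a library was left out, with the lowest values without replicate 4 of 0% RPS and without replicate 2 of 10% RPS. At 10% RPS without replicate 4 of 0% RPS it was -0.0085. TMM size factors, the low-count filter, and independent or Cook filtering switched off changed no call of the members, and a pseudocount of 0.1 changed no ratio's call. The correlations between members passed on the log2 CPM scale and without the 2 farthest libraries. No paired analysis was possible because no replicate number in the labels is shared by mice of different diets.

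The lowest count of a member in a library was 350, and the number of mice limits the precision. Every library is 1 mouse, and the p values for differences between diets set them against the spread between these mice.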
